A study of Homo sapiens with 2 samples.

Results

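The FGF receptors FGFR1, FGFR2 and FGFR3, the Sprouty genes SPRY1, SPRY2 and SPRY4, and the ETS factors ETV1, ETV4 and ETV5 were followed across the cell types of H9 cerebral organoids. These 9 of 62704 genes in the count tables were matched by gene name in both libraries, and each name belonged to 1 gene. Both libraries were made by split-seq, in which fixed cells or nuclei receive their barcodes over rounds of splitting and pooling. H9 is a human embryonic stem cell line, so all tissue here carries the genome of 1 line.

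The cell library pooled control organoids (CO) of days 45, 55 and 70, organoids dissociated at day 45, reaggregated and taken at days 48, 55 and 70 (DISS), and organoids freed of Matrigel at day 13 and held in 3% agarose until day 55 (CONS). The nuclei library held day 45 CO, as whole organoids and as dissociated cells. The deposited tables give 1 sample name for each library, so each library was 1 sample, CO, DISS and CONS were not compared, and no p-values are given. After filtering, 20178 cells (median 2615 transcripts) and 14228 nuclei (median 3890) remained, with 99 barcode names found in both. Intervals in brackets are 95% counting intervals, which cover counting error only, since transcripts of 1 barcode are not independent samples. Spread between sub-libraries (8 for cells, 2 for nuclei) is technical, and the first-round wells (48 for cells and 12 for nuclei) are loading positions whose condition is unknown. Several wells can hold the same organoid sample, so a count of wells is a description and not a number of independent replicates.

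FGF receptors are receptor tyrosine kinases that bind FGF ligands together with heparan sulphate and signal through FRS2, RAS and the MAP kinases. Sprouty proteins dampen this signal and are themselves induced by it, while ETV1, ETV4 and ETV5 form the PEA3 group of ETS transcription factors, whose transcription follows FGF signalling in many embryonic tissues. In the developing forebrain, FGF signalling is known for patterning and for maintaining radial glia (RG).

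Clusters were named from marker lists, with the members and the FGF pathway list kept out of the variable genes. RG-like barcodes numbered 2301 in cells and 3086 in nuclei, dividing barcodes 3192 and 2376, intermediate progenitor (IPC)-like barcodes 941 and 576, excitatory neuron-like barcodes 2004 and 2560, and choroid plexus-like barcodes 3146 and 751. Cajal-Retzius-like (811) and cortical hem-like (612) clusters were named in nuclei, and a pigment epithelium-like cluster (84, of which 81.0% came from 1 well) in cells. The Cajal-Retzius-like name rested on 3 of 7 markers (RELN, LHX1 and EBF3). These nuclei held the 7 markers at a summed 1985 CPM, of which RELN made up 1330 CPM, and the 10 excitatory neuron markers at 896 CPM. The 8 inhibitory neuron markers stood at 332 CPM there, against 5.21 CPM in excitatory neuron-like nuclei. The pigment epithelium-like cells held their own 4 markers at a summed 425 CPM, with 1 at 0, and the 10 choroid plexus markers at 4022 CPM, while choroid plexus-like nuclei held the pigment list at 629 CPM. The remaining 42.2% of cells and 24.3% of nuclei stayed unnamed, and every order of levels given here is over the named types. The summed level of the 12 RG markers was 6817 CPM in RG-like cells against 2477 in excitatory neuron-like cells, and 8684 against 1271 CPM in nuclei. Excitatory neuron-like cells held their own 10 markers at 2080 CPM, below the RG list in the same cells, and the nuclei at 2274 CPM. RG-like barcodes held these 10 at 299 and 214 CPM. The part of RG transcripts in the excitatory neuron-like levels of the members was not tested. The 10 choroid plexus markers reached 15182 CPM in choroid plexus-like cells and 34682 CPM in the nuclei, against 513 and 159 CPM in the RG-like types. IPC-like cells and nuclei held their own 7 markers at 677 and 298 CPM, against 83.8 and 24.9 CPM in RG-like barcodes. They also held the 12 RG markers at 4161 and 6051 CPM. Their 10 G2/M markers stood at 1079 and 1092 CPM, against 387 and 229 CPM in RG-like barcodes. The parts of dividing IPC-like barcodes, of doublets and of free RNA in this level were not tested. CPM is a gene's transcripts in a type, summed over its barcodes and scaled to a total of 1000000, and it is compared here between types for 1 gene at a time, not between genes of unequal length.

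Free RNA was measured as well. In the cell library, barcodes of 10 to 100 transcripts, taken here to hold mostly free RNA, carried FGFR2 at 295 CPM, FGFR1 at 152 CPM and FGFR3 at 45.9 CPM. From TTR, the transthyretin gene of choroid plexus, the share of free RNA had an upper bound of 33.2% to 44.3% in RG-like, dividing, IPC-like and excitatory neuron-like cells and of 12.0% to 17.1% in those nuclei. This bound holds only if free RNA had the same composition in every well as in the pooled small barcodes, which was not tested. Where the free RNA of a well held less TTR than the pool, the share could be larger. Every subtraction at the upper bound given here carries this condition. In the nuclei library the small barcodes carried FGFR2 at 302 CPM, FGFR1 at 133 CPM and FGFR3 at 51.2 CPM.

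Promoter sequences are shown for the 4 members that differed more than 2-fold between choroid plexus-like and RG-like barcodes in the same direction in both libraries. They run 5′ to 3′ on the gene's strand and come from the 250 bases before a transcript start in RefSeq (GRCh38.p14), without the parts that lie in annotated exons, so that the stretches of FGFR2 and SPRY4 stop short of the start. Capitals mark GGAA or its reverse complement TTCC, the core that ETS factors recognise.
FGFR2, chr10:121598459-121598694, minus strand: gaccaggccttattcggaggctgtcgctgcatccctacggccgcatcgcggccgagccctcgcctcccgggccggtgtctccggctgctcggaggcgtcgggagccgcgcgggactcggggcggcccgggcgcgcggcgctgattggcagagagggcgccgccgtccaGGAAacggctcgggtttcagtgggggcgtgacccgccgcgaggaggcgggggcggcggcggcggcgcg
FGFR3, chr4:1793043-1793292, plus strand: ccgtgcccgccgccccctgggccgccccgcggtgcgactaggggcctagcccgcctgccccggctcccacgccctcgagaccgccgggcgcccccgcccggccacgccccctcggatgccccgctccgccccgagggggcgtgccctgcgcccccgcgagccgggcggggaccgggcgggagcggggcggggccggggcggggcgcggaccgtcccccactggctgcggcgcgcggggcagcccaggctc
SPRY1, chr4:123396545-123396794, plus strand: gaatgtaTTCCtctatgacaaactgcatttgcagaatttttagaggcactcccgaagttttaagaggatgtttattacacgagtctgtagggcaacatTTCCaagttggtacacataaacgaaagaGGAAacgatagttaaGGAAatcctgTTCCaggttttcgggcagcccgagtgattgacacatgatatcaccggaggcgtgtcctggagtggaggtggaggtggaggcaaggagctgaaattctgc
SPRY4, chr5:142324418-142324497, minus strand: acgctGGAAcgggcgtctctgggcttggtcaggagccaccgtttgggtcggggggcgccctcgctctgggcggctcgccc
The core occurred 5 times in the SPRY1 stretch, 1 time each in those of FGFR2 and SPRY4 and 0 times in that of FGFR3, while G and C made up 45.6% of the SPRY1 stretch and 86.8% of the FGFR3 stretch. Promoters of 6 members were in the table used (FGFR2, FGFR3, SPRY1, SPRY2, SPRY4 and ETV1), with 18 start sites in all. Over the 250 bases before each start, 17 of these 18 windows held the core, against 92.7% of 35116 windows of all genes. The longer motif CCGGAAG, searched on both strands and containing the core, occurred in 1 of the 18 windows, at another SPRY1 start, against 8.52% of all windows. Matches of letters are a description of these windows and say nothing about binding.

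FGFR1 (chromosome 8, 38400215 to 38468834, minus strand, GRCh38) was higher in progenitor-like and choroid plexus-like cells than in IPC-like and neuron-like cells. It measured 250 CPM (243 to 258) in dividing cells, 248 CPM (240 to 256) in RG-like cells and 215 CPM (209 to 221) in choroid plexus-like cells, where the intervals of the first and second overlapped and that of the third did not. The clusters behind these levels differed, with 183 CPM (168 to 199) in dividing cluster 4 against 252 and 271 CPM in clusters 11 and 12. Choroid plexus-like cluster 5 (235 CPM, 227 to 242) overlapped RG-like cells, and clusters 3 and 15 were lower at 162 and 137 CPM. Levels in IPC-like cells (83.9 CPM) and excitatory neuron-like cells (71.6 CPM) were lower. In nuclei the cortical hem-like type led with 370 CPM (347 to 394), followed by choroid plexus-like, RG-like and dividing nuclei at 247, 242 and 242 CPM, whose intervals overlapped. RG-like clusters of the nuclei differed, with 212 CPM (202 to 222) in cluster 0 and 301 CPM (285 to 319) in cluster 5. Excitatory neuron-like nuclei held 14.6 CPM (12.6 to 16.8), the lowest of the named types, and Cajal-Retzius-like nuclei 70.7 CPM (62.3 to 79.9). The FGFR1 locus overlaps LETM2 and 3 other gene models, and how the counting treated overlaps is not given in the sources used here.

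RG-like against excitatory neuron-like, FGFR1 was 3.46-fold higher (3.28 to 3.65) in cells and 16.6-fold higher (14.4 to 19.3) in nuclei. It was higher in RG-like barcodes in 19 of 19 wells of the cells and 12 of 12 of the nuclei that held at least 20 barcodes of both types. In single wells of the cells, FGFR1 ranged from 152 to 383 CPM in RG-like (median 249, 24 wells) and from 4.34 to 117 CPM in excitatory neuron-like barcodes (median 44.8, 26 wells), so the wells of the types did not overlap. One well, A8, held 183 of the 2004 excitatory neuron-like cells but 33.2% of their transcripts and 49.5% of their FGFR1 counts, and without it the level of this type was 54.1 CPM (50.9 to 57.6). Leaving out the largest well of each type moved the log2 ratio from 1.79 to 2.18. Subtracting free RNA at its upper bound took excitatory neuron-like FGFR1 from 71.6 to 24.8 CPM in cells, for a log2 ratio of 3.71, and from 14.6 to 0 CPM in nuclei, where no ratio is given.

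FGFR2 (chromosome 10, 121478332 to 121598458, minus strand), whose splice forms serve epithelial and mesenchymal tissues, was highest in choroid plexus-like barcodes of both libraries. Its level there was 824 CPM (812 to 836) in cells and 1407 CPM (1378 to 1436) in nuclei, with the cortical hem-like nuclei second at 793 CPM (759 to 828). The hem-like clusters held 913 CPM (cluster 13) and 563 CPM (cluster 14). Cortical hem-like nuclei also carried the 10 choroid plexus markers at a summed 4000 CPM, with 1 of them at 0, beside 3278 CPM for their own 8 hem markers. Choroid plexus-like nuclei held these lists at 34682 and 1099 CPM and RG-like nuclei at 159 and 69.8 CPM, and the part of choroid plexus transcripts in the hem-like levels of FGFR2, SPRY1, SPRY4 and ETV4 was not tested. RG-like barcodes held 257 CPM (249 to 265) in cells and 352 CPM (342 to 363) in nuclei, below dividing barcodes at 317 and 378 CPM. In nuclei this order held for whole types only. RG-like cluster 0 held 332 CPM (320 to 345), while RG-like cluster 5 (390 CPM, 372 to 410) overlapped dividing clusters 1 (362 CPM, 350 to 375) and 9 (413 CPM, 394 to 434). The dividing clusters of the cells were split, with 342 and 348 CPM in clusters 11 and 12 but 166 CPM (152 to 182) in cluster 4, which held 1535 of the 3192 dividing cells at a median depth of 1402 transcripts and lay below RG-like cells. Excitatory neuron-like barcodes held 120 CPM in cells and 41.2 CPM in nuclei, and IPC-like barcodes 102 and 141 CPM. The excitatory neuron-like clusters of the nuclei differed, with 20.4 CPM (17.5 to 23.7) in cluster 2 and 75.6 CPM (68.2 to 83.5) in cluster 4. The level in small barcodes of the cell library (295 CPM) exceeded those of its RG-like, IPC-like and excitatory neuron-like cells, and with free RNA subtracted at its upper bound these became 226, 0 and 17.5 CPM. At that upper bound, free RNA could hold all FGFR2 counts of IPC-like cells and most of those of excitatory neuron-like cells. In nuclei, small barcodes held 302 CPM, and the subtracted levels were 360 CPM in RG-like, 108 CPM in IPC-like and 5.54 CPM in excitatory neuron-like barcodes.

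The choroid plexus-like level of FGFR2 was 3.21-fold that of RG-like in cells (3.10 to 3.32) and 4.00-fold in nuclei (3.85 to 4.15), with the same direction in 14 of 14 and 12 of 12 wells. Sub-libraries of the cells ranged from 750 to 914 CPM in choroid plexus-like and from 240 to 270 CPM in RG-like barcodes, without overlap. The choroid plexus-like clusters of the cells were uneven. Cluster 5, led by ABCA4, RBM47 and HTR2C, held 1002 CPM (987 to 1017) of FGFR2, against 308 CPM in cluster 3 (median depth 1566.5 transcripts) and 298 CPM in cluster 15, of which 94.6% came from well A8.

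FGFR3 (chromosome 4, 1793293 to 1808872, plus strand), a receptor known from ventricular zone progenitors, followed the opposite pattern to FGFR2 in choroid plexus. RG-like barcodes led in both libraries, with 121 CPM (116 to 127) in cells and 142 CPM (136 to 149) in nuclei, followed by dividing barcodes at 96.3 and 96.5 CPM. The RG-like nuclei were split, with 164 CPM (155 to 173) in cluster 0 and 99.8 CPM (90.4 to 109.8) in cluster 5, of which 53.0% came from well A10 and which overlapped dividing cluster 1 (99.9 CPM). In cells, dividing cluster 12 (115 CPM, 109 to 123) overlapped RG-like cells, while clusters 4 and 11 held 78.3 and 76.8 CPM. Choroid plexus-like barcodes held 26.0 CPM in cells and 17.0 CPM in nuclei, or 0.21-fold (0.20 to 0.24) and 0.12-fold (0.10 to 0.15) of RG-like, lower in 14 of 14 and 12 of 12 wells. Against excitatory neuron-like barcodes, RG-like barcodes were 6.82-fold higher (6.18 to 7.54) in cells and 24.2-fold higher (19.3 to 30.7) in nuclei. With free RNA subtracted at its upper bound, excitatory neuron-like FGFR3 went from 17.8 to 1.36 CPM in cells and from 5.88 to 0 CPM in nuclei, so these ratios depend on that background. Cluster 3, with 1562 of the 3146 choroid plexus-like cells, held 53.8 CPM (47.3 to 60.95), while clusters 5 and 15 held 19.6 and 13.7 CPM. By non-overlapping intervals, RG-like and dividing barcodes, as whole types, lay above every other named type in both libraries. Over single clusters of the nuclei this did not hold. Hem-like cluster 14 (86.8 CPM, 68.6 to 108) overlapped RG-like cluster 5 and dividing clusters 1 and 9, while hem-like cluster 13 held 45.9 CPM. The unnamed cluster 3 of the nuclei held 144 CPM (132 to 158). Within a type FGFR3 varied across wells, from 37.2 to 282 CPM in RG-like cells (median 135) and from 78.5 to 319 CPM in RG-like nuclei (median 165).

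Thinned to 1000 transcripts per barcode, which equalises depth, FGFR3 was detected in 9.91% of RG-like cells and 13.54% of RG-like nuclei, against 1.45% and 0.43% of the excitatory neuron-like barcodes, whose median depths were 7847.5 and 4377 transcripts (4279 and 3546.5 in RG-like). At least 1 of the 3 receptors was detected in 42.2% of RG-like cells (40.2 to 44.3) and 51.1% of RG-like nuclei (49.3 to 52.9). This share reached 51.0% and 77.1% in choroid plexus-like barcodes and 60.5% in cortical hem-like nuclei, and was 18.8% and 26.4% in IPC-like and 15.5% and 5.55% in excitatory neuron-like barcodes. More than 1 receptor was seen in 8.39% of RG-like cells and 10.99% of RG-like nuclei. Detection of any of the 9 members in RG-like barcodes was 48.5% (46.4 to 50.5) in cells and 54.7% (53.0 to 56.5) in nuclei.

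**Figure D1:**
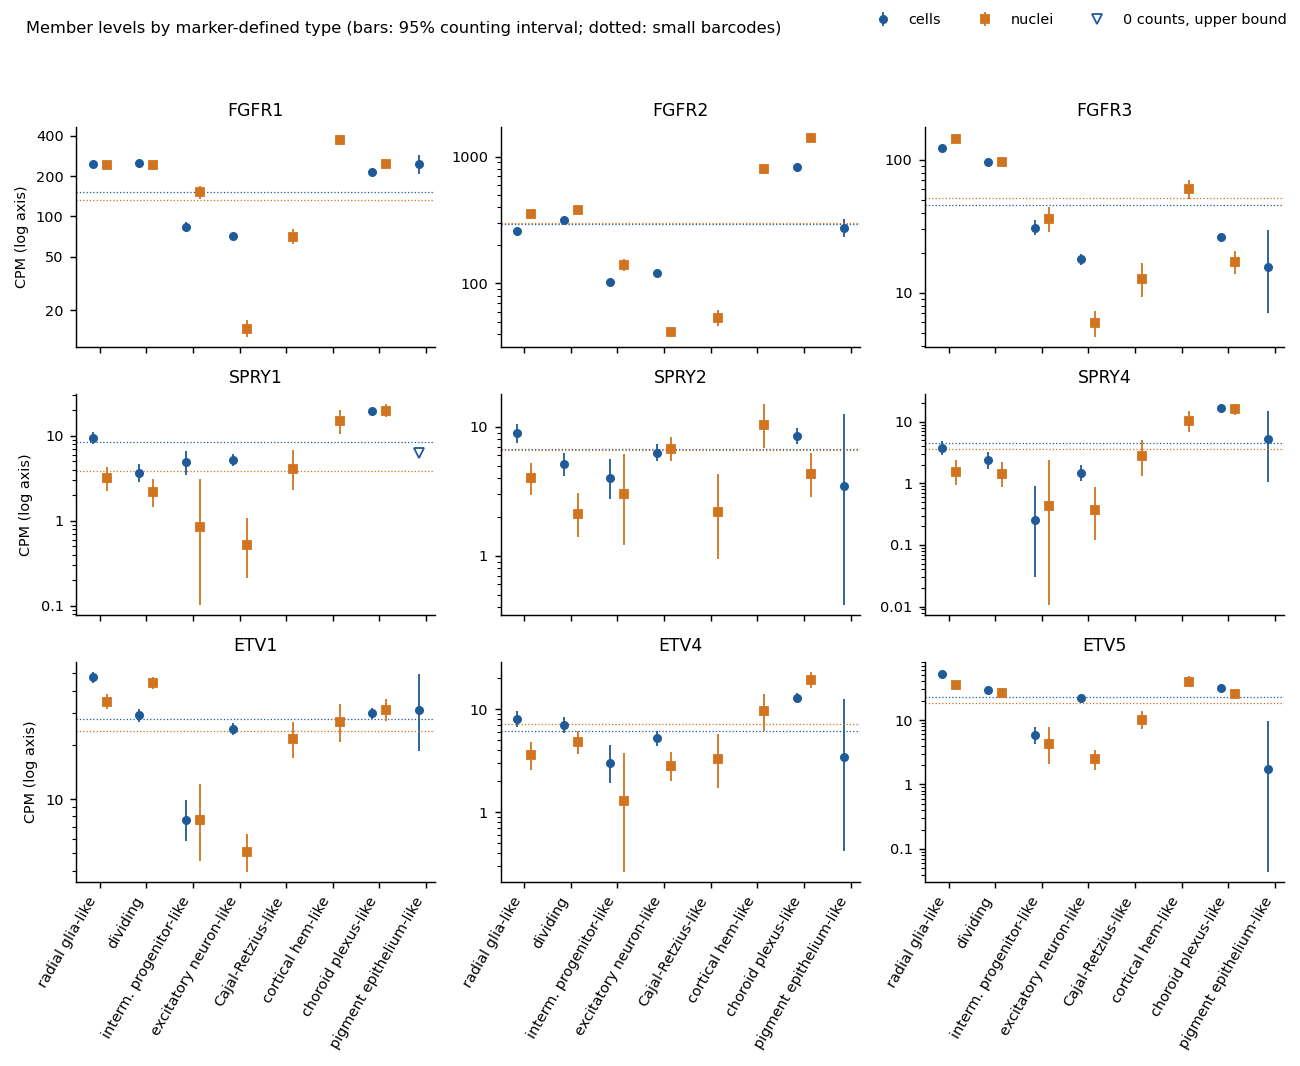
Level of each gene in CPM (log axis) by marker-defined type, in cells (circles) and nuclei (squares), with 95% counting intervals as bars and the level in barcodes of 10 to 100 transcripts as dotted lines. FGFR2 is highest in choroid plexus-like barcodes (824 and 1407 CPM) and FGFR3 in RG-like barcodes (121 and 142 CPM), while the open triangle marks the upper bound for SPRY1 in the 84 pigment epithelium-like cells, where 0 transcripts were counted.

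The Sprouty genes were sparse, with at most 2.13% of thinned barcodes of a named type positive for any 1 of them. SPRY1 (chromosome 4, 123396795 to 123403760, plus strand) was highest in choroid plexus-like barcodes, at 19.4 CPM (17.6 to 21.3) in cells and 19.9 CPM (16.5 to 23.7) in nuclei, where cortical hem-like nuclei (14.9 CPM, 10.6 to 20.3) overlapped it. Well A10 held 50.4% of the SPRY1 counts of choroid plexus-like nuclei and 32.0% of their transcripts. Without it their level was 14.5 CPM (11.1 to 18.6), no higher than that of hem-like nuclei. RG-like barcodes held 9.48 CPM (8.003 to 11.1) in cells and 3.17 CPM (2.25 to 4.33) in nuclei. The ratio of choroid plexus-like to RG-like was 2.05 (1.69 to 2.48) in cells and 6.27 (4.34 to 9.22) in nuclei, higher in 12 of 14 and 11 of 12 wells. In cells the difference was carried by cluster 5, at 22.7 CPM (20.5 to 25.05), with cluster 15 at 15.3 CPM (9.32 to 23.6), while cluster 3, which held 1562 of the 3146 barcodes, was at 8.34 CPM (5.90 to 11.4), near RG-like cells.

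SPRY1 in RG-like cells was spread unevenly over wells. It ranged from 0 to 118 CPM with a median of 4.07 CPM, and 7 of 24 wells had 0 counts. The well at 118 CPM, C11, held 13 counts in 25 barcodes, and the sub-libraries ranged from 4.98 to 28.7 CPM. In dividing cells SPRY1 was at 3.67 CPM, with 10.2 CPM in cluster 4, 1.10 in cluster 11 and 3.36 in cluster 12. Pigment epithelium-like cells held 0 counts among 579097 transcripts, which allows up to 6.37 CPM by the exact interval.

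SPRY4 (chromosome 5, 142310427 to 142326455, minus strand), like SPRY1 with all wells counted, was highest in choroid plexus-like barcodes of both libraries, with cortical hem-like nuclei next in the nuclei. Choroid plexus-like barcodes held 17.0 CPM (15.4 to 18.8) in cells and 15.9 CPM (12.9 to 19.3) in nuclei, and cortical hem-like nuclei 10.3 CPM (6.79 to 14.98). Ratios to RG-like barcodes were 4.52 (3.42 to 6.06) in cells and 10.3 (6.26 to 17.8) in nuclei, the latter on 19 counts in RG-like nuclei. SPRY4 was higher in choroid plexus-like barcodes in 12 of 14 wells of the cells and 11 of 12 of the nuclei. Its choroid plexus-like clusters in cells held 19.9 CPM (cluster 5), 5.71 CPM (cluster 3) and 19.1 CPM (cluster 15). RG-like against excitatory neuron-like cells, SPRY4 was 2.52-fold higher (1.67 to 3.84), and without sub-library s4 the log2 ratio of 1.33 became 1.00, just under 2-fold. It was higher in RG-like barcodes in 15 of 19 wells of the cells and 7 of 12 of the nuclei. Cortical hem-like clusters differed in SPRY4, with 20.0 CPM (11.9 to 31.6) in cluster 14, led by PAX3 and ZIC1, and 5.22 CPM (2.39 to 9.92) in cluster 13, led by RSPO2. IPC-like barcodes held only 2 SPRY4 counts in cells and 1 in nuclei. SPRY4 is overlapped by 3 models on the other strand, SPRY4-AS1 among them, and whether the counting used strand is not given in the sources used here.

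SPRY2 (chromosome 13, 80335976 to 80341126, minus strand) had the narrowest range of the Sprouty genes over the named types of each library. Its level ran from 4.01 to 8.96 CPM over the named types of the cells apart from the pigment epithelium-like cluster (3.45 CPM on 2 counts), close to the 6.76 CPM of small barcodes. In nuclei it ran from 2.11 CPM in dividing to 10.3 CPM in cortical hem-like barcodes. Excitatory neuron-like nuclei, at 6.77 CPM (5.45 to 8.32), lay above RG-like nuclei at 3.98 CPM (2.95 to 5.27), and neither library had a 2-fold difference between these types.

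Among the ETS factors, ETV5 (chromosome 3, 186046314 to 186110318, minus strand) was highest, of the named types, in RG-like cells at 52.7 CPM (49.2 to 56.5), and the unnamed cluster 2 of the cells, of which 76.6% came from well A8, held 52.4 CPM (45.6 to 60.1). In nuclei the cortical hem-like (39.3 CPM, 32.1 to 47.7) and RG-like types (34.96 CPM, 31.7 to 38.4) overlapped at the top. The hem-like clusters differed, with 58.9 CPM (44.2 to 77.1) in cluster 14 and 29.0 CPM (21.5 to 38.3) in cluster 13. IPC-like barcodes held 5.76 CPM in cells and 4.26 CPM in nuclei, or 0.11-fold (0.08 to 0.15) and 0.12-fold (0.06 to 0.23) of RG-like, lower in 13 of 13 and 9 of 9 wells. Of the 9 members, ETV5 had the lowest IPC-like to RG-like ratio in nuclei, on 10 counts in IPC-like nuclei. The interval of this ratio overlapped those of FGFR3, SPRY1, SPRY4, ETV1 and ETV4. In cells only the ratio of SPRY4, on its 2 counts, was lower. With free RNA subtracted at its upper bound, ETV5, ETV1, SPRY4 and FGFR2 fell to 0 CPM in IPC-like cells, so their order in cells is not resolved. ETV5 overlaps ETV5-AS1, DGKG and a small RNA model.

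The size of the ETV5 difference between RG-like and excitatory neuron-like cells depended on 1 well, without which it was larger. With all wells it was 2.37-fold (2.13 to 2.63) in cells and 14.2-fold (9.98 to 20.9) in nuclei. Well A8 held 62.8% of the ETV5 counts of excitatory neuron-like cells (393 of 626), and without it the level was 12.4 CPM (10.9 to 14.1) in place of 22.3 CPM. With the largest well of each type left out (D11 for RG-like, A8 for excitatory neuron-like) the log2 ratio moved from 1.24 to 2.09, and clustering with another random seed gave 2.19. The excitatory neuron-like clusters of the cells differed too, with ETV5 at 27.8 CPM in cluster 7, led by GRIK3 and OPCML, and at 4.63 CPM in cluster 13, led by CEMIP and UNC5A. ETV1 followed this split, at 30.4 and 5.67 CPM.

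Over whole types, ETV1 (chromosome 7, 13891229 to 13991425, minus strand) led in RG-like cells at 47.4 CPM (44.02 to 51.0) and in dividing nuclei at 44.1 CPM (40.6 to 47.9), with RG-like nuclei at 34.7 CPM (31.5 to 38.2). Single clusters of other types reached higher levels, with intervals that overlapped these leaders. Choroid plexus-like cluster 15 of the cells held 59.5 CPM (47.0 to 74.3). Hem-like clusters of the nuclei differed, with 58.9 CPM (44.2 to 77.1) in cluster 14 and 9.87 CPM (5.75 to 15.8) in cluster 13. IPC-like barcodes held 7.64 CPM in cells and 7.68 CPM in nuclei, ratios of 0.16 (0.12 to 0.21) and 0.22 (0.13 to 0.35) to RG-like. Excitatory neuron-like nuclei held 5.06 CPM, so RG-like nuclei were 6.86-fold higher (5.30 to 8.997), while the ratio of 1.93 (1.74 to 2.15) in cells missed 2-fold. Cajal-Retzius-like nuclei lay closer to RG-like nuclei, at 21.4 CPM (17.0 to 26.8). Well A8 held 42.9% of the ETV1 counts of excitatory neuron-like cells, and without the largest well of each type the log2 ratio of 0.95 became 1.14, past 2-fold. ETV1 was higher in RG-like than in excitatory neuron-like barcodes in 19 of 19 and 12 of 12 wells.

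ETV4 (chromosome 17, 43527844 to 43579620, minus strand), unlike the other ETS members, was highest in choroid plexus-like barcodes. It measured 12.9 CPM (11.4 to 14.4) there in cells and 19.4 CPM (16.1 to 23.2) in nuclei, against 8.05 and 3.58 CPM in RG-like barcodes. In cells this level came from cluster 5, at 15.8 CPM (13.9 to 17.8), while clusters 3 and 15 held 4.83 CPM (3.03 to 7.31) and 3.05 CPM (0.83 to 7.81), with intervals that overlapped that of RG-like cells (6.70 to 9.60). The ratio was 1.60 (1.29 to 1.99) in cells and 5.42 (3.81 to 7.84) in nuclei, higher in 10 of 14 and 11 of 12 wells. RG-like and excitatory neuron-like barcodes lay closer, with ratios of 1.54 (1.203 to 1.97) and 1.26 (0.80 to 2.01). ETV4 overlaps DHX8 on the other strand.

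Counted over the 9 members, 5 were at least 2-fold higher in RG-like than in excitatory neuron-like cells (FGFR1, FGFR2, FGFR3, SPRY4 and ETV5), against a background of 6.44% of the 26365 genes with at least 20 counts over both types. Of the members, 0 were 2-fold lower, against 9.13%. In nuclei 7 were higher (all but SPRY2 and ETV4), against 19.2% of 19361 genes, and 0 were lower, against 11.8%. The nuclear ratios of SPRY1 (6.09, 2.69 to 16.1) and SPRY4 (4.15, 1.499 to 14.2) rest on 7 and 5 counts in excitatory neuron-like nuclei, and the interval of SPRY4 reaches below 2-fold. The median log2 ratio of the members was 1.10 in cells and 2.78 in nuclei, against 0.04 and 0.23 over all genes. With free RNA subtracted, 8 of 9 members passed 2-fold in cells. Without the largest well of each type 7 of 9 did, with SPRY1 (log2 ratio 1.18) and ETV1 added. Nuclei and cells differ in the RNA they sample and in their free RNA. They also differ in design, as the nuclei were of day 45 CO and the cells pooled later days, DISS and CONS. The parts of these in the larger nuclear ratios were not tested and cannot be told apart here.

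IPC-like barcodes held less of most members than RG-like barcodes. In cells 8 were at least 2-fold lower (all but SPRY1, with a ratio of 0.52), against a background of 10.9%, and 0 were higher, against 4.97%. In nuclei 7 were lower (all but FGFR1 and SPRY2), against 15.7%, and 0 higher, against 5.64%. For SPRY1, SPRY4 and ETV4 in nuclei this rests on 2, 1 and 3 counts in IPC-like barcodes, and the intervals of their ratios (0.03 to 1.04, 0.01 to 1.74 and 0.07 to 1.12) include 1. Median log2 ratios were -1.56 in cells and -1.86 in nuclei, against -0.22 and -0.13 over all genes. Clusters at resolution 0.5 gave 5 members past 2-fold in cells.

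In choroid plexus-like against RG-like cells, 3 members were higher by 2-fold (FGFR2, SPRY1 and SPRY4), against 13.6% of all genes, and 1 was lower (FGFR3), against 4.6%. In nuclei 4 were higher (FGFR2, SPRY1, SPRY4 and ETV4), against 14.8%, and FGFR3 was lower, against 15.8%. FGFR1, SPRY2, ETV1 and ETV5 stayed within 2-fold in both libraries. In dividing against RG-like barcodes, 1 member was lower in cells (SPRY1, 0.39-fold, 0.29 to 0.52), against 3.97% of genes, and 0 were higher, against 3.14%. As a mean over barcodes 0 members passed 2-fold in this comparison, and with free RNA subtracted 5 did. In nuclei 0 members were past 2-fold, against 5.48% lower and 3.66% higher. The ratios in nuclei ran from 0.53 (SPRY2) to 1.35 (ETV4). Without the shallow cluster 4 1 member was past 2-fold in dividing cells, and over 15 wells SPRY1 was higher in 6 and lower in 6.

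**Figure D2:**
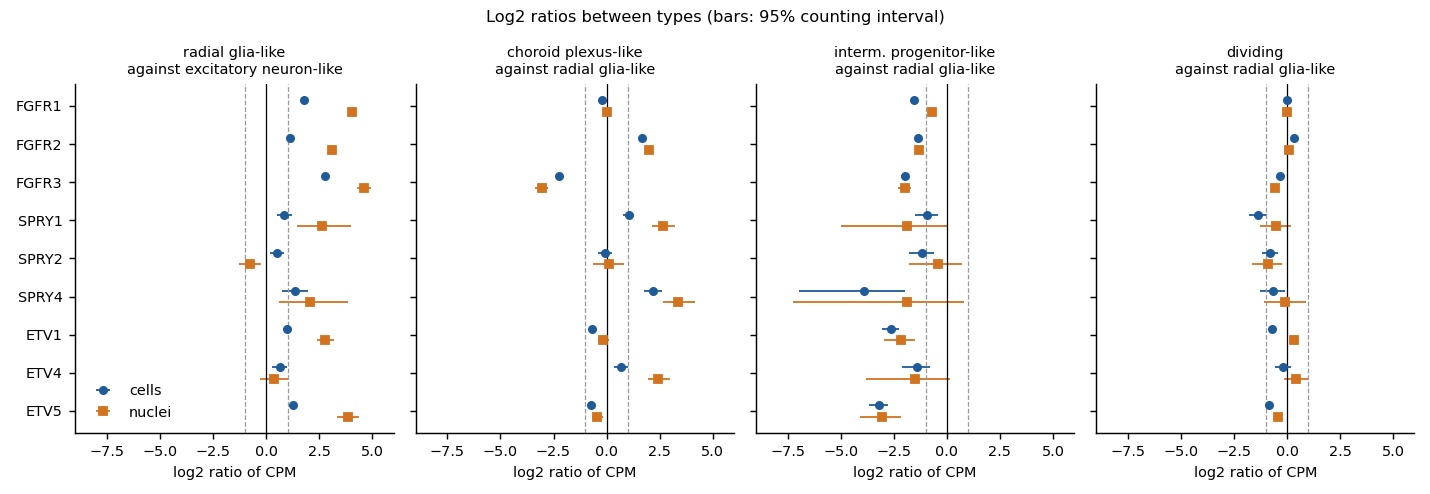
Log2 ratio of CPM for each gene in 4 comparisons of types, in cells (circles) and nuclei (squares), with 95% counting intervals as bars and dashed lines at 2-fold. FGFR3 lies far to the right for RG-like against excitatory neuron-like (2.77 and 4.60) and far to the left for choroid plexus-like against RG-like (-2.22 and -3.06), and most genes lie left of 0 for IPC-like against RG-like barcodes.

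**Figure D3:**
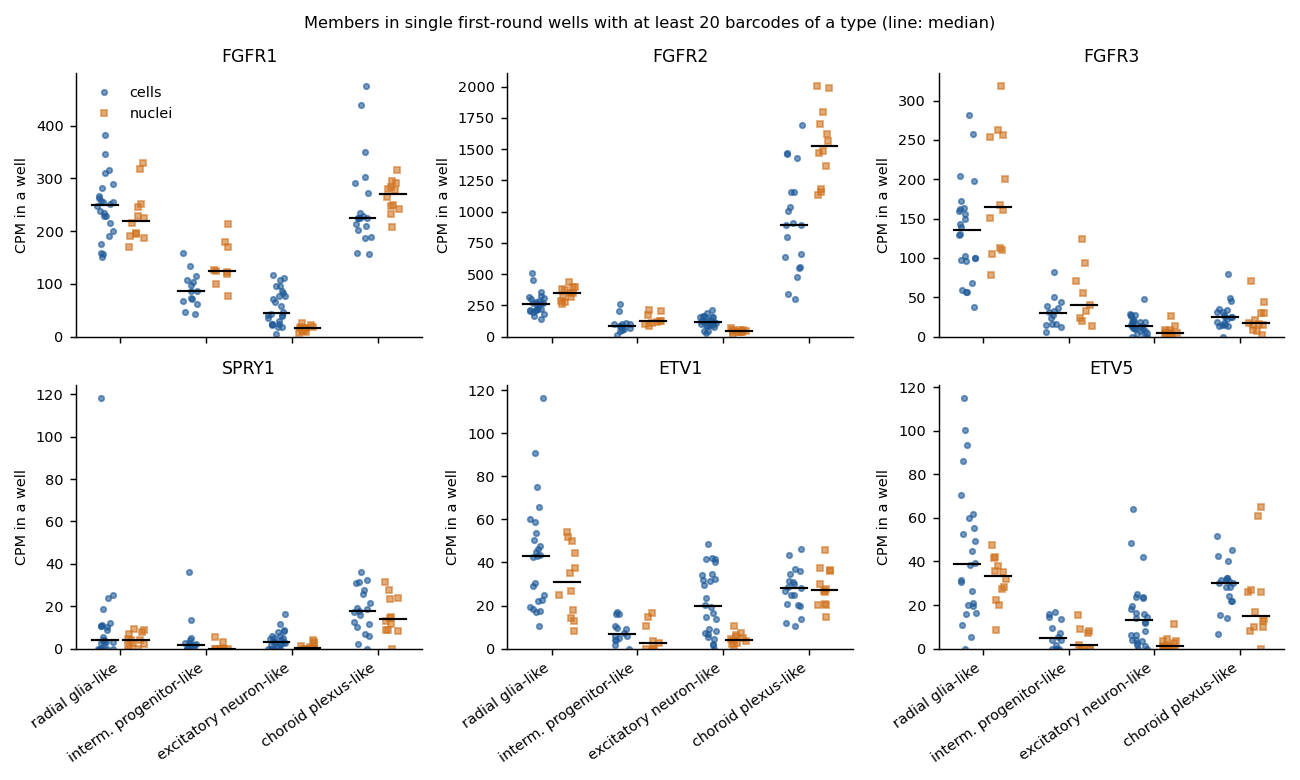
CPM of 6 genes in single first-round wells with at least 20 barcodes of a type (linear axes from 0), for cells (circles) and nuclei (squares), with black lines at the median. FGFR2 wells of choroid plexus-like cells (297 to 1693 CPM) lie mostly above those of RG-like cells (142 to 506 CPM), and 1 well of SPRY1 in RG-like cells stands at 118 CPM.

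Across the single clusters, 18 in cells and 15 in nuclei, the genes formed overlapping patterns. Correlations of log2(CPM + 10) over clusters are a description, since clusters of a library share its free RNA and differ in depth. FGFR1 followed FGFR2 (r = 0.72 in cells and 0.89 in nuclei), and SPRY1 followed SPRY4 (0.50 and 0.85). ETV1 and ETV5 went together (0.66 and 0.86), while ETV1 and ETV4 did so less (0.07 and 0.37). FGFR1 with FGFR3 reached 0.56 and 0.80, and SPRY1 with SPRY2 0.52 and 0.52. Receptors also went with Sprouty or ETS genes, such as FGFR2 with SPRY4 (0.68 and 0.59) and FGFR1 with ETV1 (0.53 and 0.77). FGFR1 and SPRY1 did so only in nuclei (-0.03 and 0.53). FGFR3 and SPRY4 ran in opposite directions in cells (-0.49) but not in nuclei (0.10).

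**Figure D4:**
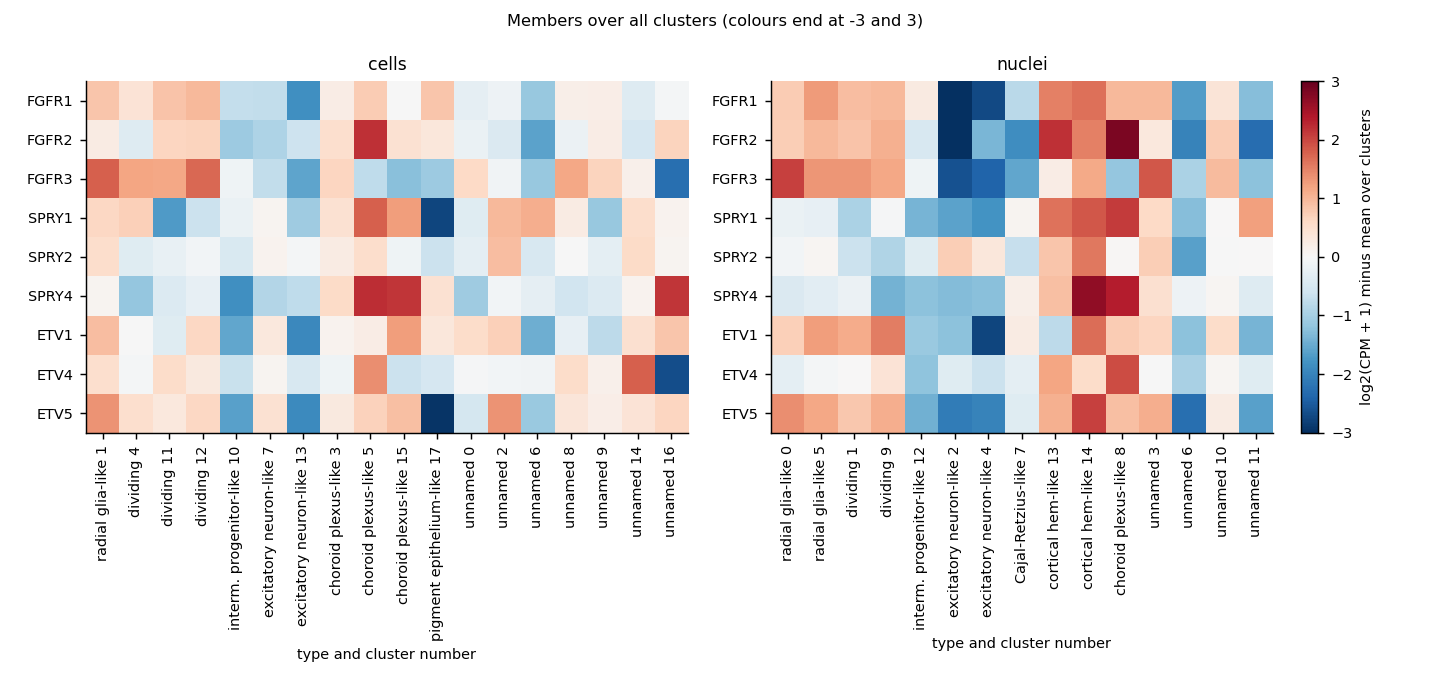
Level of each gene in every cluster as log2(CPM + 1) minus the gene's mean over the clusters of that library, for 18 clusters of cells and 15 of nuclei, with colours ending at -3 and 3. FGFR2 and SPRY4 are red in choroid plexus-like clusters 5 of the cells and 8 of the nuclei, and FGFR3 is red in RG-like clusters and blue in choroid plexus-like clusters other than the shallow cluster 3.

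Among 14727 genes with at least 200 counts in each library, the closest in pattern to each member were taken by the lower of the correlations in cells and nuclei. FGFR3 was closest to CELSR1 (0.95 in both), SOX1 and MLC1, of which SOX1 is a neural progenitor transcription factor. FGFR1 was closest to YAP1 (0.96 and 0.97), TCF7L2 and RREB1. FGFR2 had WWC2 (0.86 and 0.89), ZNF521 and ARID5B at the top, and SPRY4 had ARHGAP29 (0.95 and 0.905), FRAS1 and CCDC81. ETV5 was closest to SLC1A3 (0.86 and 0.85), a glial glutamate transporter on the RG marker list, GULP1 and PRDM16. For SPRY1 these were HYPK (0.90 and 0.86), RAB3IP and MLF1, for ETV1 SEMA5A (0.84 and 0.865), PTPRM and TOX, and for ETV4 CCDC141 (0.835 and 0.896), CSF2RA and LINC00571. SPRY2 had no close match, its best being EDNRB (0.62 and 0.66), NR3C1 and PIR.

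The rest of the pathway was followed through 79 listed genes in 8 groups by role. RG-like against excitatory neuron-like, 10 of the 71 listed genes with enough counts were at least 2-fold higher and 7 lower in cells, against 6.44% and 9.13% of all genes tested. In nuclei 16 of 60 were higher and 9 lower, against 19.2% and 11.8%. The early response and target genes CCND1 (3.76-fold in cells and 20.2-fold in nuclei), EGR1 and FOS were higher in both, where CCND1 encodes cyclin D1. So were the heparan sulphate genes GPC3 (3.19-fold and 17.9-fold), GPC4, HS6ST2 and SDC2, the ligand FGF2 (3.00-fold and 7.55-fold), the receptor-like FGFRL1 and the ETS repressor ERF. Genes lower in RG-like barcodes of both libraries were the ligand FGF9 (0.15-fold and 0.076-fold), the intracellular factors FGF12 and FGF13, the feedback gene IL17RD and the sulphatase SULF2. None of the 16 signal relay genes passed 2-fold in cells and 1 did in nuclei.

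Choroid plexus-like against RG-like, 16 of 71 listed genes were higher and 3 lower in cells, against 13.6% and 4.6% of all genes tested. In nuclei 14 of 61 were higher and 10 lower, against 14.8% and 15.8%. The largest of these ratios was that of SULF1, which removes sulphate from heparan sulphate, at 39.8-fold (36.1 to 43.9) in cells and 169-fold (142 to 203) in nuclei. DUSP6, a phosphatase that inactivates ERK, was 5.87-fold higher (4.26 to 8.28) in cells and 14.3-fold (4.31 to 74.8) in nuclei, the latter on 3 counts in RG-like nuclei. IL17RD, SDC2, SULF2, FGF12, FGF13 and ETS2 (7.32-fold and 25.1-fold) were higher in both, as were KL, the klotho co-receptor (6.68-fold and 13.9-fold), and the ligands FGF1 and FGF5. GPC4, GPC6 and HS6ST2 were lower in both. Of the 9 feedback genes on the list, 3 were higher in cells and 2 in nuclei, with 0 lower in both, and their median log2 ratio was -0.12 in cells and 0.43 in nuclei, against -0.02 and -0.19 over all genes.

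For IPC-like against RG-like barcodes, 17 of 67 listed genes were lower and 4 higher in cells, against 10.9% and 4.97% of all genes tested. In nuclei 16 of 56 were lower and 2 higher, against 15.7% and 5.64%. Those lower in both were CCND1 (0.36-fold and 0.38-fold), FOS, SPRED1 (0.33-fold and 0.38-fold), GPC3 (0.23-fold and 0.16-fold), GPC4, HS6ST2, FGF11, ERF, FGFRL1 and FGF1, the last with 0 counts in IPC-like nuclei. SPRED1 is a Sprouty-related inhibitor of RAS signalling. FGF9 (5.74-fold and 3.50-fold) and SULF2 were higher in both. Dividing against RG-like cells had 0 higher and 3 lower of 69, against 3.14% and 3.97% of all genes tested. Dividing nuclei had 2 higher and 3 lower of 58, against 3.66% and 5.48%, and no listed gene went the same way in both. The median log2 ratio of the list for RG-like against excitatory neuron-like barcodes was 0.09 in cells and 0.30 in nuclei, near the 0.04 and 0.23 of all genes, and for IPC-like against RG-like barcodes it was -0.28 and -0.38, against -0.22 and -0.13.

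**Figure D5:**
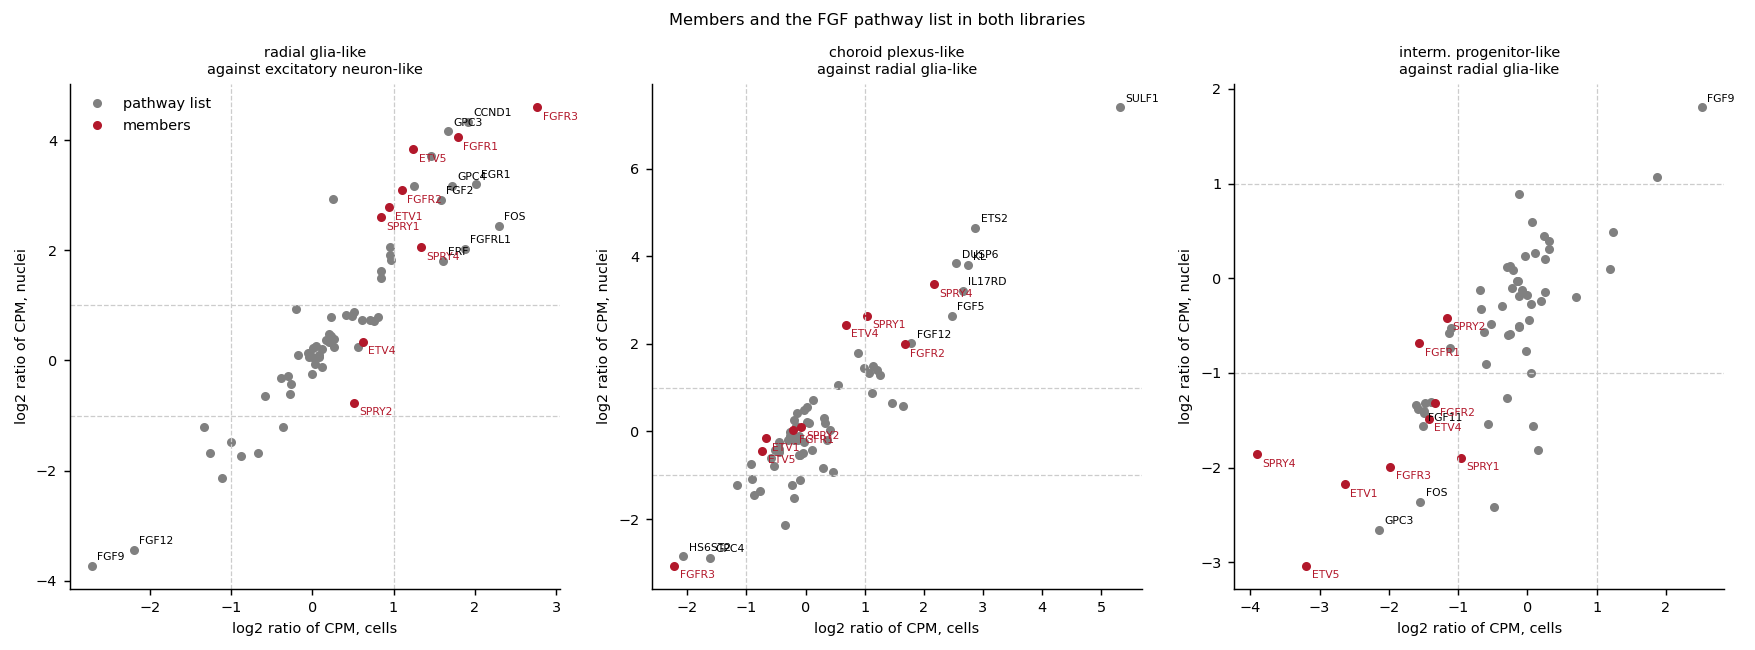
Log2 ratio of CPM in nuclei against that in cells, for the 9 members (red) and the listed pathway genes with at least 20 counts in both libraries (grey), in 3 comparisons, with dashed lines at 2-fold. Grey points past 1.5 log2 units in the same direction in both libraries are named, among them SULF1 at 5.31 and 7.40 for choroid plexus-like against RG-like, and FGFR3 stands at the lower left of that panel.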

How the data were processed

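The count tables deposited by the authors hold whole-number transcript counts per gene and barcode from the split-seq pipeline (GRCh38 per the labels' processing notes), unfiltered and not normalized, with 1 mismatch allowed in demultiplexing. A barcode was kept if its genes exceeded 500, its transcripts 1000 and its MT- share stayed within 20%, a filter that differs from that of the study for cells. Kept depth had quartiles of 1427 and 7223.75 transcripts in cells and 2275 and 6191.25 in nuclei.

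After scaling each barcode to 10000 and taking logs, 2000 variable genes, without the members and the pathway list, 30 components and 15 neighbours gave Leiden clusters at resolution 1 (scanpy 1.11.5, igraph 0.11.9, scikit-learn 1.9.0, numpy 2.4.6, scipy 1.17.1, pandas 2.3.3, Python 3.11.15). Figures were drawn with matplotlib 3.10.9. Scrublet marked 0 barcodes in both libraries, so it did not work here and no doublets were removed; the highest scores (1009 cells and 427 nuclei) were left out as an alternative. The members, pathway list and marker lists were chosen with earlier results of these data known. A cluster was named when at least 3 markers of a list were 1.5-fold higher than in other clusters and present in 10% of its barcodes, the list's mean log2 fold was at least 0.5 (1 for dividing), and 50% of the list or 2 of the 10 leading genes were among them. These thresholds were set after a looser rule had given names that went against leading genes. The change left cells clusters 0 and 9 and nuclei clusters 3, 6 and 11 unnamed and turned nuclei cluster 5 from dividing to RG-like; FGFR3 was visible among the leading genes of cells cluster 1 at that time.

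Counts were summed per type. Ratios of CPM have exact conditional intervals, levels exact Poisson intervals and shares exact Clopper-Pearson intervals, all at 95%. A gene was tested with at least 20 counts over both types and called past 2-fold. All members were named, and pathway genes where past 2-fold in the same direction in both libraries. Scripts were tested on simulated data. There the naming rule gave 16 of 18 simulated clusters of the cells and 12 of 15 of the nuclei the name of their source cluster. Alternatives were other barcode filters, clusterings, naming, thinning, free RNA subtraction, folds, and leaving out sub-libraries or wells.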

Additional observations from a re-analysis of the deposited data

Results flagged for a closer look

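SPRY2 went in opposite directions in the libraries for RG-like against excitatory neuron-like barcodes, with a log2 ratio of 0.51 in cells and -0.77 in nuclei. ETV1 did so for dividing against RG-like barcodes, at -0.70 in cells and 0.35 in nuclei. In nuclei, RG-like cluster 0 (29.8 CPM) lay below dividing clusters 1 and 9, while RG-like cluster 5 (44.3 CPM) overlapped both. Over single wells ETV1 was higher in dividing barcodes in 7 and lower in 8 of 15 wells of the cells, and higher in 8 and lower in 4 of 12 of the nuclei. SPRY2 was higher in RG-like barcodes in 13 and lower in 5 of 19 wells of the cells, and higher in 3 and lower in 9 of 12 of the nuclei. The difference between the libraries was not tested for either gene, since each library is 1 sample. Barcodes of 10 to 100 transcripts held 19552 transcripts of the 9 members in cells and 3595 in nuclei. They belong to no type and were used only as the level of free RNA.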

How the results depend on the processing

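No log2 ratio of a member for RG-like against excitatory neuron-like barcodes changed sign under the alternatives run: of 180 values in cells 135 moved by less than the spread over sub-libraries and 45 by more, and of 117 in nuclei 94 and 23. SPRY2 in nuclei ranged from -1.24 to -0.04. Members past 2-fold in this comparison of cells numbered 8 with free RNA subtracted and 8 at 1.5-fold. For choroid plexus-like against RG-like cells 1.5-fold gave 7, and for IPC-like against RG-like cells resolution 0.5 gave 5. For dividing against RG-like cells the count was 2 at resolution 0.5, 5 with free RNA subtracted, 0 as a mean over barcodes and 5 at 1.5-fold, and in nuclei it was 1 at resolution 0.5, 1 at resolution 2, 1 with free RNA subtracted and 1 at 1.5-fold. The share of RG-like cells with any member was 51.0% at resolution 0.5, 53.3% at resolution 2, 81.7% without thinning and 71.8% thinned to 2000 transcripts. In nuclei it was 52.6% above 5000 transcripts, 52.6% at resolution 0.5, 52.5% with random seed 1, 52.4% with the members among the variable genes, 50.6% under the looser naming (added after seeing the data), 87.1% without thinning, 76.8% thinned to 2000 transcripts, and 52.6% to 56.7% leaving out a sub-library. The cause of these moves was not tested. The planned comparison of inhibitory neuron-like barcodes was not run, since no cluster was named so. No paired analysis was possible because each group holds 1 sample.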

Other observations

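Among clusters left unnamed, cluster 14 of the cells, led by RPH3A, DOCK2 and RUNX1, held ETV4 at 20.9 CPM (14.8 to 28.6). This was above the 12.9 CPM of choroid plexus-like cells as a whole, but overlapped their cluster 5 (15.8 CPM, 13.9 to 17.8). Cluster 6 of the cells, led by genes that include PDK1 and HK2 of glycolysis, held SPRY1 at 13.54 CPM (11.3 to 16.1) and FGFR1 at 62.6 CPM. Cluster 11 of the nuclei, led by HIF1A-AS3 and with PDK1 among its 10 leading genes, held SPRY1 at 10.3 CPM (6.32 to 16.0) and FGFR1 at 50.7 CPM (41.1 to 61.8). For comparison, RG-like barcodes held SPRY1 at 9.48 CPM and FGFR1 at 248 CPM in cells, and at 3.17 and 242 CPM in nuclei.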
